A study of Homo sapiens with 22 samples.

Results

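The zinc finger genes of chromosome 19 were taken as all protein-coding genes of GENCODE version 44 on that chromosome whose symbol is ZNF followed only by digits. There were 240 such genes among 19970 protein-coding genes of chromosomes 1 to 22 and X. They were set against the 1227 other protein-coding genes of chromosome 19 (chr19) and, where named, against the 236 ZNF-number genes of other chromosomes. The 6 chr19 ZNF genes with a letter after the digits and the 3 read-through transcripts were placed in neither group. The label fits the sequence, since 238 of the 240 genes hold at least 3 copies of the codon pattern of a Cys-Cys-His-His zinc finger in their canonical coding sequence, with a median of 12 copies and a highest of 36.

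Calling Cards (CC) insertions were mapped in K562, an established human leukemia cell line. Cells received a barcoded self-reporting piggyBac donor plasmid with a puromycin resistance gene (Barcoded-PBase-SRT-Puro) and a helper plasmid that makes the transposase, either hyPBase (10 libraries) or hyPBase-centrip (10 libraries). All 20 libraries shared the donor, selection in 2 ug/ml puromycin for 11 days, and RNA taken from 3 combined transfections; what hyPBase-centrip changes is not stated in the sources used here, and a donor-only control was not analysed here. Libraries held 1509672 to 3596762 insertions. Nothing says how far the 10 libraries of a helper are separate cultures, so p-values measure the spread between these libraries. An insertion is recorded only when the transposon is transcribed in a cell that lived through puromycin, so that fewer transpositions and fewer recorded ones cannot be told apart.

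PiggyBac transposase inserts at the tetranucleotide TTAA. Zinc finger genes of the KRAB type lie in long tandem clusters on chr19 that arose by repeated duplication, and many of their proteins silence transposable elements through the corepressor TRIM28. Their last exon usually encodes the whole array of zinc fingers, one repeat after another, and the clusters are known for heterochromatin over the 3′ part of the genes and open promoters. Members were chosen by symbol alone, and which of them are of the KRAB type was not examined.

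TTAA sites among those with the most insertions in promoters and bodies of these genes are shown to let the target sites be seen, with 12 bases on either side on the plus strand of hg38 and the TTAA in capitals. Each site was hit in all 20 libraries and is unique in the 50 bases outward from it on either side.
ZNF175, chr19:51570832-51570859: tcaaaagtgctaTTAAagacagtgagtt
ZNF611, chr19:52725423-52725450: cgggtgaggactTTAAaaagcaaggggc
ZNF586, chr19:57819515-57819542: cagggcgcgcttTTAAggagagttcctg
ZNF304, chr19:57351002-57351029: ggtgcataccctTTAAaagcagctgtgg
The ZNF175 site lies 439 bases upstream of the gene start and held 489 insertions over the 20 libraries, 17 to 28 per hyPBase library (median 24) and 16 to 31 per hyPBase-centrip library (median 26). The ZNF611 site lies in an intron 9638 bases downstream of the start and held 488 insertions, 14 to 27 (median 24) and 15 to 32 (median 29) per library. Counts of the helpers overlapped at both sites. The ZNF304 site lies 257 bases upstream of the gene start and held 285 insertions. The ZNF586 site, with 359 insertions, is inside the GENCODE gene but outside its canonical transcript, and is 199 bases upstream of the canonical start of another gene, ENSG00000268750. A TTAA can be counted at most once per barcode and orientation in a library, and each library held 26 barcodes of which 21 each made up at least 0.5% of its insertions, so values at these sites are bounded from above.

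The zinc finger array itself holds TTAA sites at a recurring place. The stretch below covers 3 consecutive finger repeats of ZNF729 on the plus strand of hg38, from the first cysteine codon, with each TTAA in capitals, and is shown because none of its 4 TTAA sites took an insertion in any library, although all 4 are unique by the measure above.
ZNF729, chr19:22314213-22314464: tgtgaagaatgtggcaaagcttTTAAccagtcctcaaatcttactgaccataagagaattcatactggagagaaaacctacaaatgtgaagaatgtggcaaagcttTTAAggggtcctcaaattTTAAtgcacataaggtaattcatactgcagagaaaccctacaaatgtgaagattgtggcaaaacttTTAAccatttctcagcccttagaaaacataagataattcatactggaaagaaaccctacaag
Over 2995 finger repeats of 84 bases in the coding sequences, 716 TTAA were counted, 1 for every 4.18 repeats. Of these, 56.0% started at base 23 of the repeat counted from the first base of the first cysteine codon, as in the ZNF729 stretch, and 16.6% at base 41.

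Insertions were sparse in the bodies of the chr19 zinc finger genes and much less so at their promoters. Relative density is the number of insertions per TTAA site in a region divided by the same number over chromosomes 1 to 22 and X of that library, so that 1 is the genome average. The 38626 TTAA sites in member bodies took 54965 insertions. In the hyPBase libraries their relative density was 0.517 ± 0.017 (SD, n = 10; lowest 0.499, median 0.512, highest 0.552), and in the hyPBase-centrip libraries it was 0.521 ± 0.011 (SD, n = 10; lowest 0.5, median 0.523, highest 0.539). Bodies of the other chr19 genes stood at 1.59 ± 0.042 and 1.61 ± 0.037, from 1.53 to 1.69 over all libraries. No library of either helper overlapped between these gene groups. The log2 ratio of members to other chr19 genes was -1.62 on average and negative in 20 of 20 libraries (two-sided sign-flip permutation test over libraries, Benjamini-Hochberg adjusted over 7 values, p = 1e-05, the smallest that 100000 resamples can give).

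**Figure D1:**
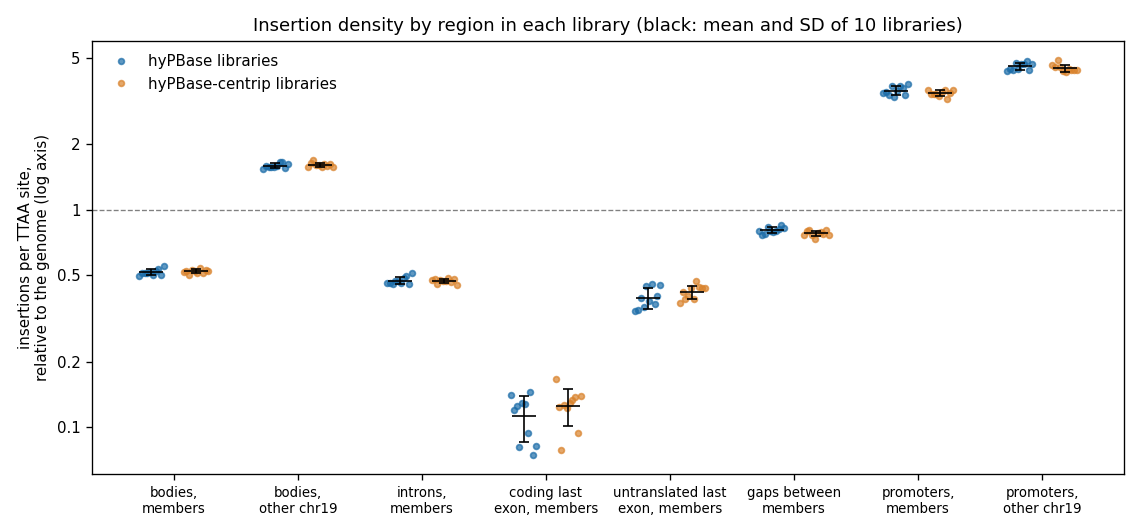
Insertions per TTAA site relative to the genome average (y axis, log scale) for 8 regions (x axis), with 1 point per library, hyPBase in blue and hyPBase-centrip in orange, and black bars for the mean and SD of 10 libraries. Member bodies sit near 0.5 and their coding last exons between 0.0751 and 0.166, while member promoters sit above 3 in every library.

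The summed body density of zinc finger genes elsewhere in the genome was not low. The 236 ZNF-number genes of other chromosomes stood at 1.27 ± 0.013 with hyPBase and 1.26 ± 0.012 with hyPBase-centrip, close to the 1.2 of all protein-coding genes off chr19, and the log2 ratio of chr19 members to them was -1.28 (adjusted p = 1e-05, sign-flip permutation). Against the other genes that lie inside the zinc finger clusters or within 250 kb of them, the log2 ratio of members of the clusters was -1.49 (adjusted p = 1e-05, sign-flip permutation). Those neighbouring genes had a relative density of 1.29 ± 0.037 with hyPBase and 1.3 ± 0.031 with hyPBase-centrip. DNA copy number of K562 was not corrected, and its part in differences between chromosomes or along chr19 was not tested.

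Members differed widely among themselves. Among the 199 members with at least 50 TTAA sites in the body, the median relative density was 0.304 (quartiles 0.0915 and 0.708), 85.4% lay below 1 and 39.2% below 0.2. Among 437 other chr19 genes with as many sites, the median was 1.2, with 39.6% below 1 and 5.03% below 0.2. The 188 ZNF-number genes of other chromosomes had a median of 1.04, with 47.9% below 1 and 14.4% below 0.2, between the chr19 members and all genes of other chromosomes, of which 40.9% lay below 1 and 4.88% below 0.2 (median 1.19). The 10 members with the most insertions held 36.8% of all insertions in member bodies, and 37 of the 240 members had fewer than 20 insertions over the 20 libraries.

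**Figure D2:**
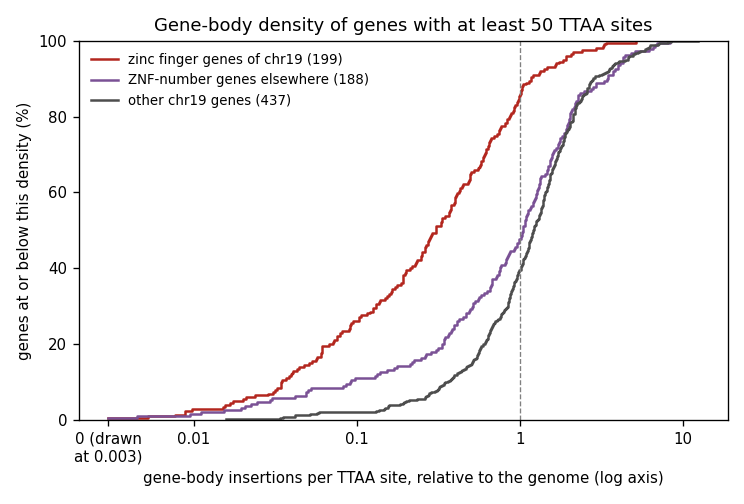
Share of genes (y axis, percent) at or below a gene-body relative density (x axis, log scale), for genes with at least 50 TTAA sites: 199 zinc finger genes of chr19 (red), 188 ZNF-number genes elsewhere (purple) and 437 other chr19 genes (grey). The red curve lies to the left, with its median at 0.304 against 1.04 and 1.2.

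ZNF611 (chr19:52702813-52735073, minus strand) had the highest body density of members with at least 50 sites, with a mean ± SD over 10 libraries of 4.98 ± 0.477 with hyPBase and 5.29 ± 0.384 with hyPBase-centrip. It took 43 to 103 insertions per hyPBase library (median 80) and 54 to 114 per hyPBase-centrip library (median 98.5). Every library of ZNF611 was thus far above the members' average, and the helpers overlapped. ZNF627 (chr19:11559374-11619161, plus strand) followed at 3.5 ± 0.285 and 3.19 ± 0.351. ZNF507 (chr19:32345594-32387667, plus strand), which lies outside the clusters, stood at 3.31 ± 0.168 and 3.25 ± 0.413, with 87 to 166 and 67 to 188 insertions per library.

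At the other end, ZNF492 (chr19:22634324-22667671) took 0 insertions at its 217 TTAA sites in all 20 libraries. A count of 0 allows a relative density of up to 0.00505 (3 insertions over the 20 libraries, counting error only); 64.1% of its sites are unique, fewer than the 94.2% over all member bodies, and the part of this in the count was not tested. ZNF835, with only 17 sites, was the other member at 0. ZNF729 (chr19:22286441-22317176) took 3 insertions at 217 sites, of which 89.9% are unique, and ZNF470 (chr19:56567468-56588911) took 3 at 141 sites, of which 99.3% are unique.

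Of 5 members with a known target or partner, ZNF93 and ZNF224 lay above the members' median of 0.304 and the others below it. ZNF91, which represses SVA retrotransposons, held 79 insertions at 542 sites, a relative density of 0.0578 ± 0.0277 with hyPBase and 0.048 ± 0.0277 with hyPBase-centrip, and none at the 19 TTAA sites of its coding last exon. ZNF93, which represses LINE-1 elements, stood higher at 0.447 ± 0.0531 and 0.525 ± 0.101, also with no insertion at the 14 sites of its coding last exon. ZNF274, which binds the 3′ ends of other zinc finger genes, stood at 0.152 ± 0.121 and 0.154 ± 0.131. ZNF350, also known as ZBRK1 for its link to BRCA1, was at 0.195 ± 0.0815 and 0.201 ± 0.0897, and ZNF224, a KRAB repressor, at 0.402 ± 0.203 and 0.381 ± 0.141. Helper means differed by less than the larger of their SDs in each of these 5 genes.

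Promoters were taken as 1 kb on either side of the GENCODE gene start. The 1741 TTAA sites of member promoters took 16592 insertions, a relative density of 3.53 ± 0.17 with hyPBase (lowest 3.31, median 3.5, highest 3.78) and 3.44 ± 0.11 with hyPBase-centrip (lowest 3.21, median 3.44, highest 3.56). Other chr19 promoters stood at 4.56 ± 0.17 and 4.48 ± 0.16, with a lowest library of 4.31, above all member values. The log2 ratio was -0.38 (20 of 20 libraries negative, adjusted p = 1e-05, sign-flip permutation). Within members, promoter density exceeded body density by a log2 ratio of 2.75 (20 of 20 libraries, adjusted p = 1e-05), against 1.5 in other chr19 genes, and the difference of 1.25 ± 0.039 (SD, n = 20) was positive in all 20 libraries (sign-flip permutation p = 1e-05, adjusted over 2 added comparisons). With 5 kb on either side of the start the ratio of member to other promoters was -1.03 and that of promoter to body 1.34. Against promoters of ZNF-number genes elsewhere, at 7.67 ± 0.26 and 7.47 ± 0.28, the log2 ratio was -1.12.

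The promoters, too, were unequal. Of the 176 members with at least 5 promoter TTAA sites, 100 had a promoter density above 1, 9 had no promoter insertion and 145 had more in the promoter than in the body, with a median of 1.33. The highest was ZNF175 (chr19:51571283-51592510), known as OTK18, at 36.4 ± 2.51 with hyPBase and 34.0 ± 2.95 with hyPBase-centrip, followed by ZNF507 at 32.8 ± 3.28 and 29.6 ± 4.69 and ZNF304 (chr19:57351271-57359898) at 26.6 ± 3.77 and 19.7 ± 3.07. In ZNF175 and ZNF304 the single site printed above carried 489 of 1341 and 285 of 372 promoter insertions. ZNF627, ZNF429 and ZNF846 had dense bodies but took 7, 1 and 2 insertions at their GENCODE promoters. Those promoters have only 3, 5 and 2 TTAA sites, so the relative densities were 0.923, 0.116 and 0.333. With promoters placed at the start of the canonical transcript instead, the log2 ratio of members to other chr19 genes was -0.30. Over the 199 members with at least 50 sites, body density went with promoter density (Spearman's rho 0.54), less with TTAA sites per kb (-0.35), and hardly with the number of finger patterns (-0.15), the unique share of sites (0.07) or gene length (-0.05). The body includes the 1 kb of the promoter window downstream of the start and members with no promoter site entered at 0; without the first 1 kb, over the 155 members that also have at least 5 promoter sites, rho was 0.51. These are descriptions across genes that share libraries and neighbourhoods.

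**Figure D3:**
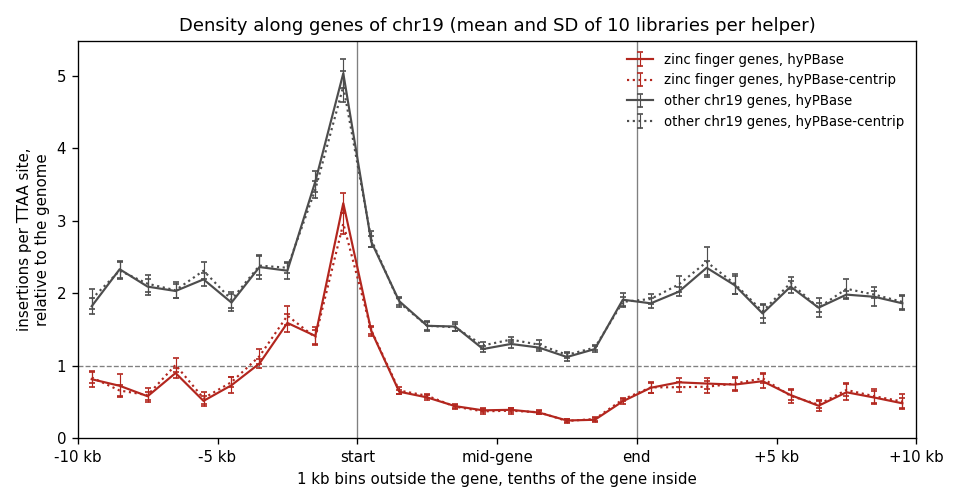
Relative density (y axis) in 1 kb bins up to 10 kb outside the gene and in 10 equal parts of the gene (x axis), for the zinc finger genes (red) and other chr19 genes (grey), hyPBase solid and hyPBase-centrip dotted, with SD over 10 libraries. Members peak at 3.1 in the last 1 kb before the start, fall to 0.242 in part 8 of the gene and return to 0.523 in part 10.

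Along the gene, density fell steeply. In members it was 3.1 in the 1 kb before the start, 1.49 in part 1 of 10 equal parts of the gene, 0.65 in part 2, 0.242 in part 8 and 0.523 in part 10. Other chr19 genes went from 4.94 before the start to 2.73, 1.88, 1.13 and 1.89 in the same places, so that density fell into the gene and rose at its end in both groups, and members lay lower at each of these places.

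The coding part of the last exon, where the finger array lies, was the emptiest region measured. Its 1177 TTAA sites took 387 insertions, a relative density of 0.112 ± 0.027 with hyPBase (lowest 0.0751, median 0.123, highest 0.146) and 0.125 ± 0.024 with hyPBase-centrip (lowest 0.0791, median 0.128, highest 0.166). Introns of the same canonical transcripts stood at 0.473 ± 0.019 and 0.472 ± 0.011, and the untranslated part of the last exon at 0.394 ± 0.044 and 0.419 ± 0.03. No library overlapped between the coding last exon and either of the others. The log2 ratio of coding last exon to introns was -2.02 (20 of 20 libraries, adjusted p = 1e-05, sign-flip permutation), and -0.51 when the untranslated part was counted in. With introns beyond the first 1 kb of the gene alone it was -1.70. Introns were not otherwise matched to the last exon in their position along the gene. Of the 215 members with a TTAA there, 110 had no insertion in it, and ZNF114 had the most with 40, a gene singled out after its values were seen.

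In other chr19 genes the coding last exon was not sparse relative to introns. It stood at 1.74 ± 0.21 with hyPBase and 1.78 ± 0.29 with hyPBase-centrip, on only 222 sites, against 1.41 ± 0.041 and 1.44 ± 0.039 in introns. The log2 ratio was 0.29, and the members' ratio lay below it by a difference of -2.31 ± 0.36 (SD, n = 20) in 20 of 20 libraries (sign-flip permutation p = 1e-05, adjusted over 2 added comparisons).

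Repeats limit where reads can be placed. In the coding last exon 86.0% of TTAA sites are unique in 50 bases outward on both sides, against 94.2% in introns. Density at unique sites was 0.138 in the coding last exon and 0.496 in introns, and at the 165 other sites of the coding last exon it was 0.00886. With unique sites alone the log2 ratio was -1.89. The 400 sites at base 23 of a finger repeat had a density of 0.046 ± 0.028 with hyPBase and 0.056 ± 0.022 with hyPBase-centrip, and the 777 other sites of the coding last exon 0.146 ± 0.048 and 0.161 ± 0.039, but 68.5% of the former and 95.0% of the latter are unique. At unique sites the densities were 0.0671 ± 0.041 and 0.0769 ± 0.035 at base 23 and 0.154 ± 0.05 and 0.168 ± 0.041 elsewhere. TTAA sites were not rare in member bodies as a whole, with 5.25 TTAA per kb against 2.77 in other chr19 genes, and 30.3% of them took at least 1 insertion, against 55.4%.

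The members form 12 clusters of at least 5 genes with at most 250 kb between neighbouring bodies. They hold 226 members, and 14 lie outside. Gaps, the bases within a cluster outside protein-coding genes, were denser in insertions than the bodies beside them. Their 24761 sites stood at 0.805 ± 0.026 with hyPBase (lowest 0.769, median 0.801, highest 0.85) and 0.78 ± 0.021 with hyPBase-centrip (lowest 0.738, median 0.781, highest 0.806), and bodies in clusters at 0.458 ± 0.015 and 0.462 ± 0.0092. No library overlapped. The log2 ratio of gaps to bodies was 0.78 (20 of 20 libraries, adjusted p = 1e-05, sign-flip permutation), and 0.51 when clusters were joined at up to 100 kb. Gaps include the bases before gene starts, where density in members was 3.1 in the last 1 kb. The part of these bases in the ratio was not tested. The gaps themselves lay under the 1.37 ± 0.029 and 1.38 ± 0.043 of chr19 sequence outside genes and gaps.

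**Figure D4:**
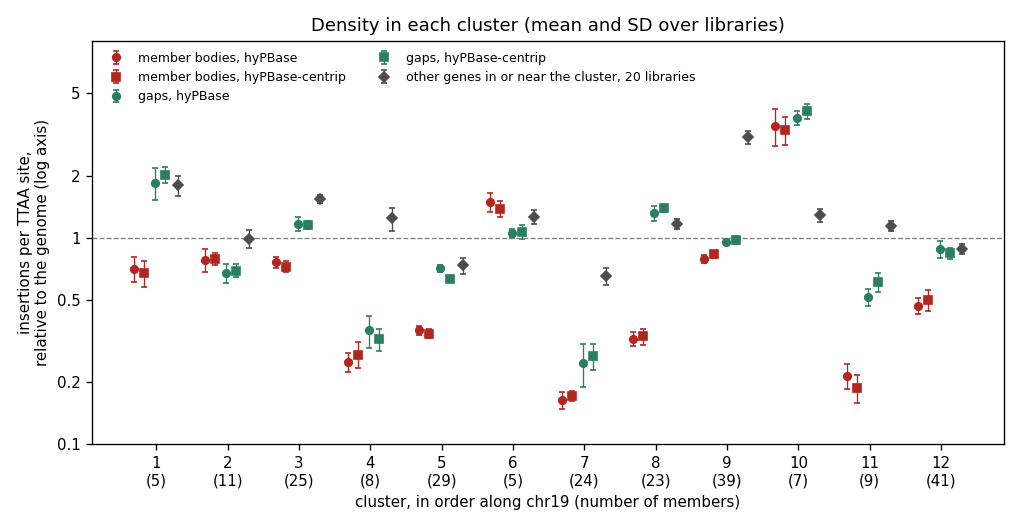
Relative density (y axis, log scale) in each of 12 clusters in their order along chr19 (x axis, with the number of members), for member bodies (red) and gaps (green) with the mean and SD of 10 libraries per helper, and for other genes in or within 250 kb of the cluster (grey, 20 libraries). Member bodies lie below the other genes in 10 clusters and above them in clusters 6 and 10. In cluster 6 they lie below without ZNF792, and little of the excess is left without ZNF181.

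Cluster 7 (chr19:36182276-37817300, 24 members from ZNF565 to ZNF573) was the lowest, with member bodies at 0.164 ± 0.016 with hyPBase (0.146 to 0.196) and 0.172 ± 0.0094 with hyPBase-centrip (0.16 to 0.19). Its gaps were at 0.247 ± 0.058 and 0.267 ± 0.038, also the lowest of all clusters. Cluster 11 (chr19:56087366-56671783, 9 members) followed at 0.215 ± 0.03 and 0.188 ± 0.029, with the lowest promoter density, 0.664. The largest in length, cluster 5 (chr19:20535825-24129968, 29 members from ZNF737 to ZNF254, 3.59 Mb), stood at 0.356 ± 0.018 and 0.343 ± 0.017, and holds ZNF91, ZNF492 and ZNF729 but also ZNF429 at 2.26 ± 0.231 and 1.96 ± 0.287. The cluster with the most members, cluster 12 (chr19:57191500-58481230, 41 members), stood at 0.469 ± 0.043 and 0.499 ± 0.057.

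At the upper end, cluster 10 (chr19:55476617-55645623, 7 members) stood at 3.48 ± 0.71 and 3.32 ± 0.5 but has only 64 TTAA sites in its members, and cluster 6 (chr19:34677639-34964229, 5 members) at 1.49 ± 0.16 and 1.38 ± 0.12. Clusters 9, 2, 3 and 1 came next, between 0.786 and 0.708 with hyPBase. In the order of densities, neighbours were compared by exact sign-flip permutation tests within each helper, adjusted over all 22 pairs, with 0.00195 the smallest p that 10 libraries allow. Clusters 9 and 2, 2 and 3, 3 and 1, and 5 and 8 did not differ beyond their spread with either helper (adjusted p from 0.0529 to 0.826). Clusters 4 and 11 did not differ with hyPBase (adjusted p = 0.0802) and clusters 11 and 7 did not with hyPBase-centrip (adjusted p = 0.134), both by the exact test. All other neighbours in the order differed.

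Gaps exceeded bodies in 10 of the 12 clusters by sign-flip permutation tests added for each cluster. The difference was largest in cluster 8 (chr19:43525497-44500524, 23 members), where gaps stood at 1.35 and bodies at 0.329 (log2 ratio 2.04 ± 0.17, SD, n = 20), followed by clusters 11 (1.49 ± 0.37) and 1 (1.48 ± 0.3). The log2 ratio was negative in cluster 6 (-0.43 ± 0.16) and cluster 2 (-0.20 ± 0.17, 19 of 20 libraries below 0, adjusted p = 0.000262, sign-flip permutation), in each through 1 gene. Without ZNF792, which holds 379 of the 1177 insertions in the members of cluster 6, the ratio there was 0.04 ± 0.18, with gaps higher in 11 of 20 libraries. Without ZNF846, which holds 1301 of the 3003 insertions in cluster 2, it was 0.45 ± 0.16, with gaps higher in 20 of 20. No other cluster changed direction when any 1 member was left out, although the size of the ratio moved. It went from 0.64 to 1.04 in cluster 3 without ZNF627 and from 0.94 to 1.27 in cluster 5 without ZNF429. In cluster 9 it went from 0.25 to 0.51 without ZNF83, and in cluster 12 from 0.83 to 1.12 without ZNF586. In cluster 4 it went from 0.37 to 0.73 without ZNF93. Without ZNF90 the cluster 4 ratio was 0.13, with gaps higher in only 12 of 20 libraries. In cluster 10 the ratio went from 0.23 to between 0.09 and 0.46. Against other protein-coding genes in or within 250 kb of the same cluster, member bodies were lower in 20 of 20 libraries in 10 clusters, from -0.34 ± 0.15 in cluster 2 to -2.52 ± 0.24 in cluster 11. They were higher in cluster 10 (1.38 ± 0.27) and in cluster 6 (0.19 ± 0.19, adjusted p = 0.00053, sign-flip permutation over 12 clusters). The direction in cluster 6 rested on ZNF792: without it the log2 ratio was -0.28 ± 0.19, negative in 18 of 20 libraries. Without ZNF181, too, little of the excess was left, with a log2 ratio of 0.03 ± 0.22 and members lower in 9 of 20 libraries. In cluster 2 the ratio was -0.98 ± 0.19 without ZNF846.

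The densest member of each cluster, whatever its number of sites, was ZNF77 (0.849), ZNF846 (2.91), ZNF627 (3.34), ZNF101 (0.768), ZNF429 (2.11), ZNF792 (7.03), ZNF146 (1.09), ZNF576 (3.33), ZNF611 (5.13), ZNF524 (7.84), ZNF444 (1.01) and ZNF497 (3.07) in clusters 1 to 12. Of these, ZNF77 has 28 TTAA sites, ZNF792 has 20, ZNF576 has 15, ZNF497 has 13 and ZNF524 has 4, so that single sites weigh heavily in them. ZNF146 encodes a protein made almost only of zinc fingers, and its body overlaps other genes so that no position counted for strand. The 14 members outside clusters stood at 1.06 ± 0.051 with hyPBase and 1.07 ± 0.054 with hyPBase-centrip in the body, about the genome average, and at 6.94 ± 0.71 and 5.83 ± 0.49 in the promoter. Their body value mixes unlike genes. ZNF536, named for its length of 489 kb, holds 2352 of their 3750 sites and 4325 of their 10948 insertions, at a density of 0.668. ZNF507 holds another 2896 insertions, at 3.28.

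Orientation was the other readout of each insertion. At positions covered by protein-coding genes of 1 strand only, 37.3% ± 1 of insertions in member bodies lay on the strand of the gene with hyPBase (lowest 35.7, median 37.5, highest 38.8) and 38.6% ± 0.96 with hyPBase-centrip (lowest 37.3, median 38.3, highest 40.3). All libraries were below 50%, by -12 percentage points on average (20 of 20, adjusted p = 1e-05, sign-flip permutation). Other chr19 genes had a lower share in every library, 34.4% ± 0.23 and 34.8% ± 0.42, and the difference was 3.35 points (20 of 20, adjusted p = 1e-05, sign-flip permutation). Against ZNF-number genes elsewhere, at 31.4% ± 0.8 and 33% ± 0.69, the difference was 5.78 points. By cluster the share ran from 18.7% in cluster 6 to 44.8% in cluster 10. In members outside clusters it was 31.2%, with ZNF536 at 46.3% and ZNF507 at 18.5%. Without ZNF792 cluster 6 stood at 27.5%, still below cluster 8, the next lowest with all members, at 31.6%. The upper end rested on 1 gene, since cluster 10 stood at 17.7% without ZNF865. An orientation can also change how often the transposon's transcript is recovered, and that was not tested.

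Gene by gene, same- and opposite-strand insertions were compared with edgeR's quasi-likelihood test with the library as a block, over all 12325 protein-coding genes that had 10 or more insertions in 10 or more libraries. Of all genes tested 90.4% were called at an adjusted p below 0.05, 85.0% with the opposite strand higher and 5.43% with the same strand higher. Of the 240 members, 74 had enough insertions, and 59 (79.7%) were called, 48 (64.9%) with the opposite strand higher and 11 (14.9%) with the same strand higher. The median log2 ratio of same to opposite strand was -0.67 in these members and -1.11 over all genes tested. With the libraries of 1 helper alone, 34 members were tested and 28 called in each, and with no filter on low counts 131 of 225. Over all genes, 8862 of 9908 were called with hyPBase alone, 9250 of 10469 with hyPBase-centrip alone and 14441 of 18435 with no filter.

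**Figure D5:**
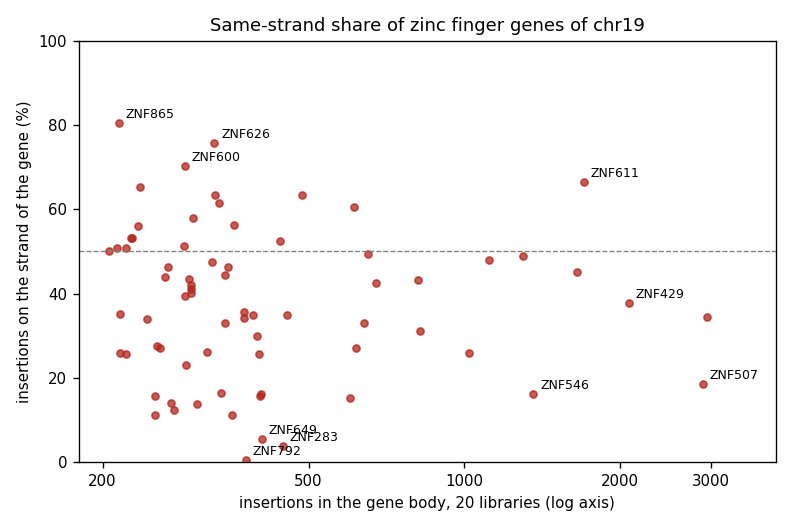
Percent of gene-body insertions on the strand of the gene (y axis) against the number of insertions at positions of 1 strand (x axis, log scale), for the 72 members with at least 200 such insertions, 1 point per gene over 20 libraries. Of these, 53 lie below 50%, and the points run from 0.528% in ZNF792 to 80.5% in ZNF865.

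Among 72 members with at least 200 insertions at such positions, the median share was 38.6%, and 53 were below 50%. ZNF792 (chr19:34956354-34964229) had the lowest, with 2 of 379 insertions on its own strand (log2 ratio -6.40, SE 0.29, adjusted p = 2.42e-69, edgeR). ZNF283 (chr19:43827321-43852017) had 3.81% and ZNF649 (chr19:51889235-51905040) 5.42%, each with the opposite strand higher in 20 of 20 libraries. The smallest adjusted p-values on this side belonged to ZNF507, at 18.5% of 2896 insertions (-2.13, SE 0.0611), and ZNF546 (chr19:39984134-40021038), at 16.1% of 1360 (-2.37, SE 0.0911).

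Insertions along the strand of the gene prevailed in a smaller group. ZNF865 (chr19:55605647-55617269) had 80.5% of 215 insertions on its own strand, with 76.3% in hyPBase and 83.9% in hyPBase-centrip libraries. ZNF626 (chr19:20619939-20661596) had 75.7% of 329 (log2 ratio 1.61, SE 0.172, adjusted p = 1.5e-18, edgeR), and ZNF600 (chr19:52749942-52786807) 70.2% of 289. ZNF611, with the densest body, had 66.5% of 1700 (0.98, SE 0.0726, adjusted p = 4.08e-34, edgeR). The same strand was higher in 20 of 20 libraries in ZNF865, ZNF626 and ZNF611 and in 18 in ZNF600.

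None of the 7 values above differed between hyPBase-centrip and hyPBase at an adjusted p below 0.05 (two-sided permutation test of helper labels, 10 against 10 libraries). The smallest adjusted p, 0.0728, was shared by the promoter to body ratio (hyPBase-centrip minus hyPBase -0.051), the gap to body ratio (-0.059) and the same-strand share (1.3 points, unadjusted p = 0.0112, permutation). The difference in the same-strand share passed with barcodes collapsed to 1 count per position and orientation (1.7 points, adjusted p = 0.0112, permutation). A higher mean share with hyPBase-centrip was not particular to members. Genes of other chromosomes stood at 32.5% ± 0.43 with hyPBase and 33.8% ± 0.27 with hyPBase-centrip, and ZNF-number genes elsewhere at 31.4% ± 0.8 and 33% ± 0.69. In other chr19 genes the means lay closer, at 34.4% ± 0.23 and 34.8% ± 0.42. Helper differences within these groups were not tested. No cluster differed between helpers in member body density at an adjusted p below 0.05. The nearest was cluster 9 with 0.831 ± 0.034 against 0.786 ± 0.035 (adjusted p = 0.139, permutation).

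In the edgeR test of gene-body insertions between helpers, 2.39% of 12865 genes tested were called (0.816% higher and 1.57% lower with hyPBase-centrip), and 1 of the 77 members tested. It was ZNF429 (chr19:21496682-21556270), lower with hyPBase-centrip (log2 -0.22, SE 0.0655, adjusted p = 0.0425). It had 73 to 132 insertions per hyPBase library (median 106) and 65 to 129 per hyPBase-centrip library (median 102), and the helpers overlapped widely. The call was absent with DESeq2, with no filter on low counts and with a term for library size. At an unadjusted p below 0.05 there were 3 of the 77 members by edgeR and 3 by DESeq2, where chance alone puts about 5% below it. The share of all genes below it was not counted. The median log2 difference of the members tested was 0.03, and 0.00 over all genes.

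The genes whose products work with KRAB zinc finger proteins were read from a list of 16 that holds no member. Of these, 10 had a body density above 1. Among genes of other chromosomes with at least 50 TTAA sites, a minimum not set for the list, 40.9% lay below 1 (median 1.19). The edgeR strand test covered 13 of the 16 and called the opposite strand higher in all 13, where 85.0% of all genes tested were so called. The untested TRIM28, DAXX and CHD3 had 75%, 96.7% and 3.53% of their insertions on the strand of the gene. TRIM28, the corepressor itself, lies on chr19 with only 6 TTAA sites and stood at 0.282. SETDB1, the methyltransferase it recruits, stood at 1.73 ± 0.31 and 1.72 ± 0.23, and the heterochromatin protein genes CBX5 and CBX3 at 6.43 ± 0.45 and 6.7 ± 0.46 with hyPBase and 5.97 ± 0.36 and 5.64 ± 0.38 with hyPBase-centrip. CBX1, of the same family, was not dense, at 0.906 ± 0.2 with hyPBase and 0.901 ± 0.26 with hyPBase-centrip. Also below 1 were MPHOSPH8 (0.956), TASOR (0.752), CHD3 (0.517) and ATRX (0.311). The helper test covered the same 13 genes and called 2, CBX3 (log2 -0.26, adjusted p = 0.0085, edgeR) and ATF7IP, a partner of SETDB1 (-0.24, adjusted p = 2e-06, edgeR). Both were lower with hyPBase-centrip, where 1.57% of all 12865 genes tested were so called.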

How the data were processed

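Per the labels and file headers, the authors deposited 1 qbed file per library, with 1 line per insertion on hg38 that gives position, raw read count, orientation and barcode. The submitters' processing notes name Trimmomatic, SAMtools and BWA, with no versions, roles or filters in the sources used here. The files were used as deposited; 2 libraries whose labels conflict were not used. Each line was 1 insertion, whatever its read count.

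Insertions were counted per gene and region (GENCODE version 44) in Python 3.11.15 with numpy 2.4.6, scipy 1.17.1 and pandas 2.3.3, divided by TTAA sites and by the same ratio over the genome, with no correction for copy number. Sign-flip and label permutation tests used 100000 resamples. edgeR 4.0.16 (TMM, quasi-likelihood, Benjamini-Hochberg, at least 10 insertions in at least 10 libraries) and DESeq2 1.42.0 (alternative) ran in R 4.3.3 over all protein-coding genes, and the scripts were tested on simulated data. Figures used matplotlib 3.10.9.

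Members and lists were chosen with earlier results of these data known. Genes named are the 3 highest and 3 lowest in body density (at least 50 TTAA sites) and in same-strand share (at least 200 insertions), the 3 highest in promoter density (at least 5 sites), the densest of each cluster, helper calls, the 2 smallest p-values per direction for strand, ZNF91, ZNF93, ZNF274, ZNF350, ZNF224, and the 3 TTAA sites with most insertions in promoters and in bodies, of which 1 is not reported here. Tests per cluster, values with 1 member of a cluster left out, neighbouring genes, canonical promoters and the comparisons of other genes' exons and promoters were added after seeing the data. Replicate numbers did not pair libraries: the 10 correlations of same-numbered deviations ran from -0.0462 to 0.0377.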

Additional observations from a re-analysis of the deposited data

Results flagged for a closer look

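Of 78 sets of 10 libraries, 7 had a library far from the others, and chance gives about 3.90 for separate sets. Many of the sets share sites and most of the 7 fell in 1 library, so they are not separate events. In hyPBase replicate 10 the log2 ratio of member to other chr19 bodies was -1.55 (next -1.60) and bodies in clusters stood at 0.494 (next 0.469). In hyPBase-centrip replicate 3 the same log2 ratio was -1.75 (next -1.64), promoters of other chromosomes stood at 6.1 (next 5.58), all of chr19 at 1.3 (next 1.25), chr19 outside genes and gaps at 1.49 (next 1.40), and the same-strand share of ZNF-number genes elsewhere was 34.7% (next 33.3%). Without either library the log2 ratio of member to other chr19 bodies kept its direction in all that remained, at -1.63 and -1.62.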

How the results depend on the processing

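The 7 values kept their direction and stayed past the threshold with at least 2 reads per insertion, barcodes collapsed, unique sites, letter-suffixed genes added, and without hyPBase replicate 10 or hyPBase-centrip replicate 3. So did those values for which each of the other settings was run: bodies without the first 1 kb, other comparison genes, and other promoter, exon, gap and cluster definitions. The helper difference in the body ratio (-0.0018) changed sign with barcodes collapsed (0.013), without hyPBase-centrip replicate 3 (0.013) and without hyPBase replicate 10 (0.0059), and that in the promoter ratio (-0.012) without hyPBase-centrip replicate 3 (0.0014), though not without hyPBase replicate 10 (-0.0056); none of these passed. The helper difference in the same-strand share passed with barcodes collapsed (1.7 points, adjusted p = 0.0112, permutation), and with the replicate block it was 1.3 points (adjusted p = 0.0410, permutation). Replicate numbers did not pair the libraries (1 of 10 correlated best with its own number), so the block says nothing of pairs. The 1 member called between helpers became 0 with DESeq2, with no filter on low counts, with the replicate block and with library size as a term. The 59 members called for strand became 28 with hyPBase alone, 28 with hyPBase-centrip alone and 131 with no filter. Over all genes, calls went from 11144 of 12325 to 8862 of 9908, 9250 of 10469 and 14441 of 18435 in the same settings. The cause was not tested, except that fewer libraries or more genes were tested. Members with few TTAA sites or insertions limit precision: 163 of 240 had too few insertions for the helper test.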
